A study of Arabidopsis thaliana with 4 samples.

Results

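PUB22 (AT3G52450), PUB23 (AT2G35930) and PUB24 (AT3G11840) are a triplet of Arabidopsis ubiquitin ligase genes of the plant U-box class. They were taken by name, as the probe sets whose single annotated gene is one of the 3, and each has 1 probe set, so that 3 of the 13350 genes named by a single-gene probe set are described. The arrays held RNA from Columbia seedling roots 6 days after germination, and every root had spent 1 hour on 140 mM NaCl. In the sorted-protoplast group (n = 2 arrays) the roots were then digested to protoplasts, which went through a sorter that collected all of them, so no reporter gate chose a cell type. In the whole-root group (n = 2 arrays) intact roots were harvested after a similar salt treatment. The comparison asks what protoplasting and sorting do to transcript levels in salt-treated roots. No array of roots without salt was analysed here, so both groups carry any response to salt.

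U-box proteins are E3 ligases: the U-box docks an E2 enzyme that carries activated ubiquitin, and the rest of the protein, in this triplet a run of armadillo repeats, holds the substrate. The marked substrate is commonly degraded by the 26S proteasome. In Arabidopsis the triplet is known for dampening pattern-triggered immunity, the defence that starts when surface receptors detect microbial molecules. PUB22 is known to target EXO70B2, a subunit of the exocyst tethering complex. PUB22 and PUB23 are also known to restrain drought responses and to ubiquitinate RPN12a, a subunit of the proteasome lid.

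PUB22 and PUB23 were higher in sorted protoplasts, and PUB24 did not pass the test. PUB22 had signals of 1517 and 4446 in sorted protoplasts, against 369 and 355 in whole roots. Both protoplast arrays lay above both root arrays, by 4.12 to 12.5 times over the 4 pairs of arrays. The root arrays were nearly equal for this gene, with a ratio of 1.04 between them, while the protoplast arrays differed 2.93-fold.

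PUB23 had signals of 2039 and 3086 in sorted protoplasts, against 145 and 446 in whole roots. The groups again did not overlap, and the ratio over the 4 pairs of arrays was 4.57 to 21.3. Here the spread lay mainly in the roots: the root arrays differed 3.09-fold and the protoplast arrays 1.51-fold. PUB22 thus varied more between the protoplast arrays, and PUB23 more between the root arrays.

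PUB24 had signals of 310 and 423 in sorted protoplasts, against 184 and 358 in whole roots. Its groups overlapped, since the lower protoplast array lay below the higher root array. The ratio over the 4 pairs of arrays was 0.865 to 2.30.

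**Figure D1:**
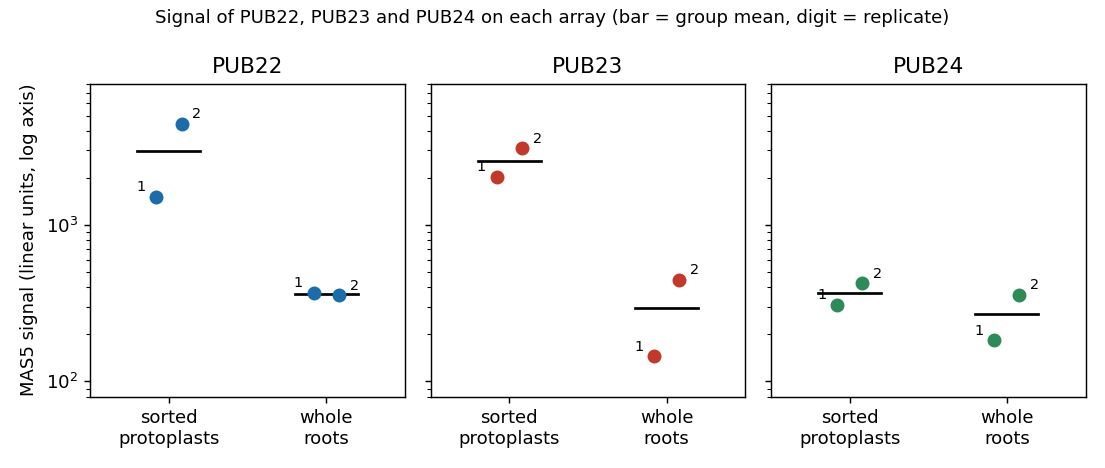
MAS5 signal on a log axis for PUB22, PUB23 and PUB24 on each array, with sorted protoplasts left of whole roots, a bar at each group mean and a digit for the replicate. For PUB22 and PUB23 both protoplast arrays lie above both root arrays, and for PUB24 the groups overlap.

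As means, PUB22 had a signal of 2982 ± 2071 in sorted protoplasts and 362 ± 9.27 in whole roots (SD, n = 2 each), a ratio of 8.24. PUB23 averaged 2562 ± 740 in sorted protoplasts and 295 ± 213 in whole roots (SD, n = 2 each), a ratio of 8.68. PUB24 averaged 366 ± 80.1 in sorted protoplasts and 271 ± 123 in whole roots (SD, n = 2 each), a ratio of 1.35. In RNA from a mix of cells, more cells that hold a transcript and more of it per cell cannot be told apart, and this holds for every difference given here.

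The test was limma's, fitted on log2(signal + 16) over 13647 probe sets, with p-values adjusted by the Benjamini-Hochberg method and a threshold of 0.05. Differences are sorted protoplasts minus whole roots on that log2 scale, so those of dim genes are understated. All 3 genes were above the signal filter of about 51.3. PUB23 rose by 3.21 ± 0.51 (SE; 95% interval 2.08 to 4.35, limma adjusted p = 0.00444). PUB22 rose by 2.79 ± 0.49 (SE; 95% interval 1.69 to 3.89, limma adjusted p = 0.00763). PUB24 had a difference of 0.47 ± 0.41 (SE; 95% interval -0.45 to 1.39, limma adjusted p = 0.508), an interval that includes no difference and also a 2.62-fold increase.

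Thus 2 of the 3 genes rose, where 6.38% of all probe sets tested were called higher. The genes and the context lists below were chosen with earlier results of these data known. This share is therefore a background and no test of an excess. Over all probe sets tested 870 were higher and 561 lower, and with arrays scaled on spike-ins the split turned to 397 higher and 620 lower. Both of these genes, 2 of 3, also had signals that did not overlap between the groups, where 21.5% of all probe sets tested had both protoplast signals above both root signals. The difference of PUB23 was the 158th highest and that of PUB22 the 240th highest of the 13647, so that 1.15% and 1.75% of probe sets had higher ones. PUB24 stood 2829th, with 20.7% of probe sets above it. The median difference was -0.16 over all probe sets tested, and the middle value of the 3 genes was 2.79.

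**Figure D2:**
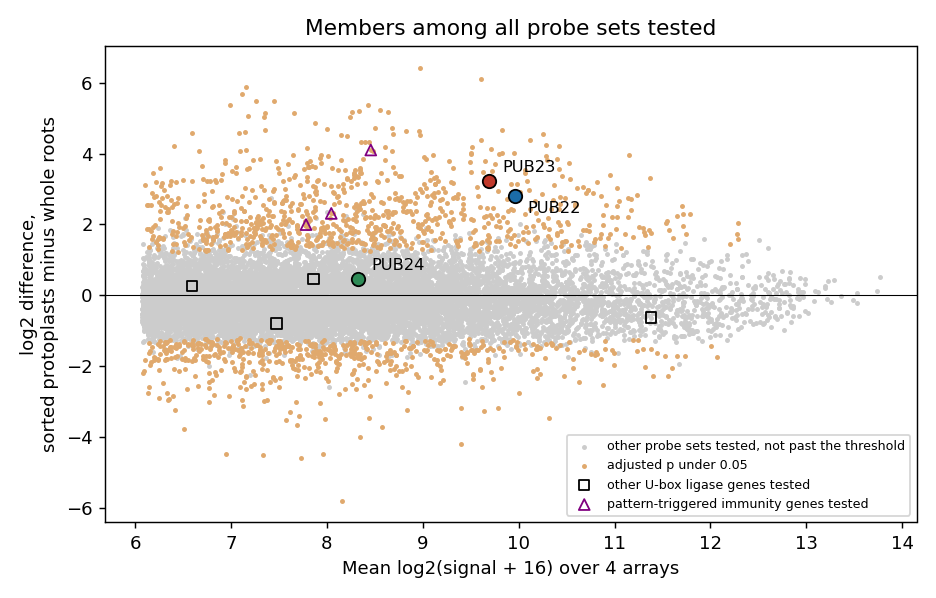
The log2 difference (sorted protoplasts minus whole roots) against the mean log2(signal + 16) over 4 arrays for all 13647 probe sets tested. PUB23 and PUB22 lie among the higher calls at 3.21 and 2.79, and PUB24 at 0.47 lies within the band of probe sets that did not pass, as do the 4 other U-box ligase genes tested.

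The calls rest on few arrays. With whole-root replicate 1 left out neither gene was called, PUB22 being at 2.82 (limma adjusted p = 0.116) and PUB23 at 2.45 (limma adjusted p = 0.0675). With whole-root replicate 2 left out PUB22 was not called either, at 2.77 (limma adjusted p = 0.104), nor was it with no signal filter (limma adjusted p = 0.0547). A fit without one array leaves a single array in that group: its spread comes from the other group's pair and the prior over all probe sets, and the lone array is assumed to vary alike. Without whole-root replicate 1 or 2 the calls over all probe sets also dropped, to 192 and 167 higher, while the differences of PUB22 and PUB23 stayed above 2. The difference of PUB24 was 0.02 when the first root array was left out, 0.92 when the second was, 0.25 when the second protoplast array was, and 0.03 with arrays scaled on spike-ins. It passed under none of the 15 alternatives.

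Whether the triplet's members moved by different amounts was examined within each array, as the difference between the log2 values of a pair of genes. Only the change of that difference between groups is of use, since levels of separate probe sets are not comparable. PUB23 minus PUB24 was 2.66 and 2.82 in sorted protoplasts, against -0.32 and 0.31 in whole roots. The groups did not overlap for this pair, and PUB23 moved further than PUB24 by 2.74 on the log2 scale, with 2.35 to 3.14 over the 4 pairs of arrays.

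PUB22 minus PUB24 was 2.24 and 3.35 in sorted protoplasts, against 0.94 and -0.01 in whole roots. These groups did not overlap either, and PUB22 moved further than PUB24 by 2.32, with 1.29 to 3.35 over the 4 pairs of arrays. PUB23 minus PUB22 was 0.42 and -0.52 in sorted protoplasts, against -1.26 and 0.32 in whole roots. For these genes the groups overlapped, and the difference of 0.42 ranged from -0.84 to 1.68 over the 4 pairs of arrays, so no order between PUB22 and PUB23 was seen beyond the spread.

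A two-sided exact permutation test over arrays cannot go below p = 0.333 with 2 arrays against 2. The exact test gave that smallest value for PUB23 against PUB24 and for PUB22 against PUB24 (0.5 adjusted over the 3 pairs), and p = 0.667 for PUB23 against PUB22 (0.667 adjusted). None of the 3 pairs can therefore be called different by this test. With each single array removed in turn, PUB23 against PUB24 gave 2.43 to 3.06 and PUB22 against PUB24 gave 1.77 to 2.88. Since the groups did not overlap for these pairs, no such removal could change the direction. For PUB23 against PUB22, whose groups overlapped, the direction changed. The value was -0.05 without sorted-protoplast replicate 1 and -0.37 without whole-root replicate 1.

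Of 23 other U-box ligase genes listed, 6 had a single-gene probe set, 4 were tested and 0 passed limma's test, with 1 at an unadjusted p under 0.05. Over all probe sets tested 6.38% were called higher and 4.11% lower, so that 0 of 4 does not set these genes apart. Their median difference was -0.18, near the median of all probe sets tested. PUB19, a U-box gene known with PUB18 to restrain drought responses, had signals of 3096 and 1465 in sorted protoplasts, against 2895 and 3770 in whole roots. One protoplast array was well below both root arrays and the other lay between them, and the difference was -0.63 ± 0.42 (SE, limma adjusted p = 0.382).

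PUB43, another U-box gene, had signals of 200 and 326 in sorted protoplasts, against 194 and 171 in whole roots, a difference of 0.46 ± 0.37 that did not pass. Both protoplast arrays were above both root arrays, as for 21.5% of all probe sets tested, the nearest pair only slightly. The gene with an unadjusted p under 0.05 was PUB49, at 131 and 107 in sorted protoplasts against 192 and 247 in whole roots (-0.80 ± 0.35, limma adjusted p = 0.181).

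PUB25 and PUB26, the pair of U-box ligases known to target the immune kinase BIK1, were named after their values were seen. PUB25 had signals of 131 and 60.4 in sorted protoplasts, against 74.1 and 70.4 in whole roots, a difference of 0.26 ± 0.39 that did not pass and turned to -0.18 with spike-in scaling. PUB26 was below the signal filter and so was not tested, with 115 and 63.2 in sorted protoplasts, against 23.3 and 26.3 in whole roots. Its protoplast signals were above both root signals, by 2.40 to 4.91 times, where 21.5% of all probe sets tested had that order. In a fit with no filter its difference was 1.32 ± 0.38 with a limma adjusted p of 0.136. PUB15, also below the filter, had signals of at most 26.1.

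Other steps of the ubiquitin pathway were measured in part. E2 enzymes take ubiquitin from the activating enzyme and hand it to an E3 ligase. Of 39 activating and conjugating enzymes listed, 13 had a single-gene probe set, 12 were tested and 0 passed limma's test, with 1, UBC16, at an unadjusted p under 0.05. Against 6.38% higher and 4.11% lower over all probe sets tested, 0 of 12 is no mark of the list. Their median difference was 0.09, with a range of -1.20 to 0.76. UBC28, of the E2 group commonly paired with U-box ligases in test-tube assays, had signals of 3567 and 5030 in sorted protoplasts, against 3583 and 3302 in whole roots, a difference of 0.30 ± 0.35 that turned to -0.14 with spike-in scaling. UBC30, of the same group, had 1699 and 1970 in sorted protoplasts, against 1327 and 1117 in whole roots, a difference of 0.58 ± 0.35. The groups overlapped for UBC28 and not for UBC30, and neither gene passed. Over all probe sets tested, 21.5% had both protoplast signals above both root signals. UBC16, named after its values were seen, had 45.5 and 160 in sorted protoplasts, against 226 and 219 in whole roots, a difference of -1.20 ± 0.48 (limma adjusted p = 0.149). That value hung on the unequal protoplast arrays: it was -1.96 and called without sorted-protoplast replicate 2 (limma adjusted p = 0.00557), and -0.44 and not called without replicate 1.

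Of 6 known partners and substrates of the triplet and of related ligases, 1 was measured, RPN12a. It is also the only one of 48 listed proteasome subunits with a single-gene probe set. RPN12a had signals of 1181 and 1156 in sorted protoplasts, against 1247 and 1458 in whole roots, a difference of -0.20 ± 0.34 (95% interval -0.98 to 0.57, limma adjusted p = 0.752). The protoplast signals were below both root signals, as they were for 36.2% of all probe sets tested, and the interval leaves room for a change of either sign. Among ATL genes, which encode RING-type ubiquitin ligases, 4 of 16 listed had a probe set, 2 were tested and 0 passed limma's test, with 0 at an unadjusted p under 0.05, too few to read against the 6.38% and 4.11% over all probe sets. ATL8 had a difference of 0.31 ± 0.47, which turned to -0.13 with spike-in scaling, and ATL4H one of 0.21 ± 0.32, which turned to -0.23 with that scaling.

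**Figure D3:**
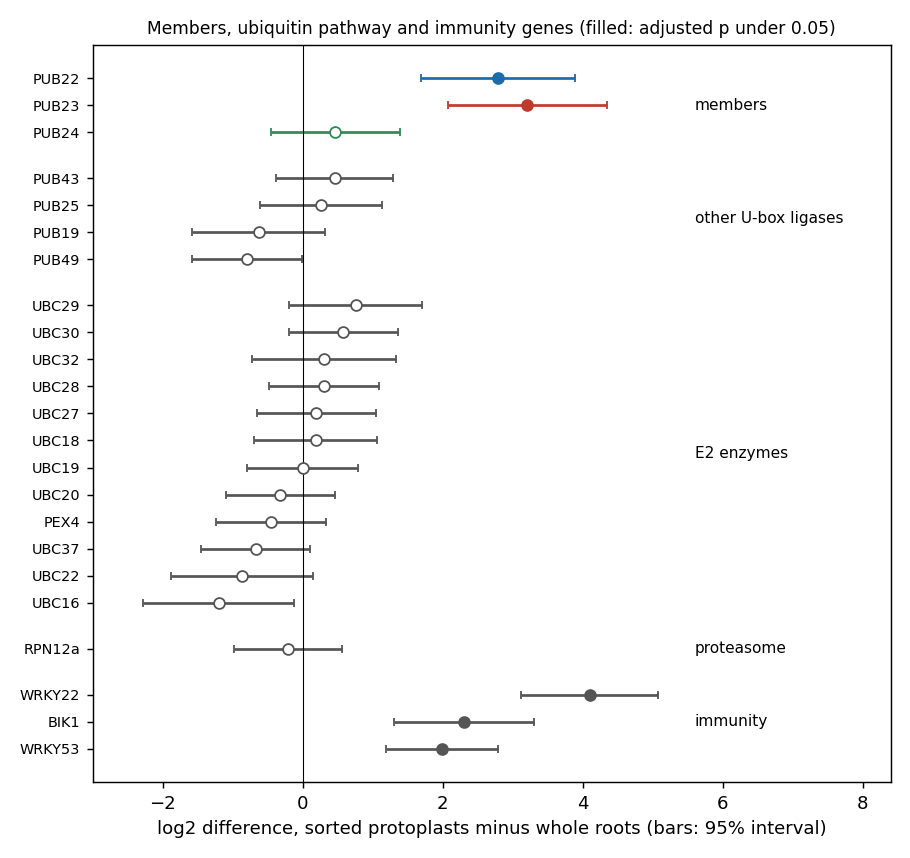
Log2 differences (sorted protoplasts minus whole roots) with 95% intervals for the triplet, other U-box ligases, E2 enzymes, RPN12a of the proteasome and pattern-triggered immunity genes, filled where the adjusted p is under 0.05. Filled points are PUB22, PUB23 and the 3 immunity genes WRKY22, BIK1 and WRKY53, and all others are open.

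Of 33 genes listed for pattern-triggered immunity, 4 had a single-gene probe set and 3 were tested. All 3 tested rose, with a median difference of 2.31, where 6.38% of all probe sets tested were called higher. WRKY22, a transcription factor downstream of the immune MAP kinase cascade, had signals of 950 and 2177 in sorted protoplasts, against 74.02 and 64.03 in whole roots, and rose by 4.1 ± 0.44 (SE, limma adjusted p = 0.000790). BIK1, a cytoplasmic kinase that relays signals from immune receptors, had 388 and 840 in sorted protoplasts, against 78.9 and 132 in whole roots, and rose by 2.31 ± 0.45. WRKY53, a transcription factor of defence and senescence, had 352 and 508 in sorted protoplasts, against 89.6 and 99.2 in whole roots, and rose by 1.99 ± 0.36. None of the 3 overlapped between the groups, where 21.5% of all probe sets tested had both protoplast signals above both root signals. The call was lost for BIK1 and WRKY53 with spike-in scaling (1.87 and 1.56, limma adjusted p = 0.0738 and 0.153), and for BIK1 with no signal filter (limma adjusted p = 0.0631). It was also lost without whole-root replicate 1, at 1.99 for BIK1 (limma adjusted p = 0.168) and 1.93 for WRKY53 (limma adjusted p = 0.120), and without whole-root replicate 2, at 2.63 (limma adjusted p = 0.0824) and 2.06 (limma adjusted p = 0.0915). EFR, the receptor for bacterial elongation factor, was below the filter with signals of at most 5.19.

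In the list of drought and abscisic acid genes, chosen because PUB22 and PUB23 act in drought, 4 of 13 had a probe set, 3 were tested and 1 rose, where 6.38% of all probe sets tested were called higher. STZ, a zinc finger repressor gene induced by salt and other stresses, had signals of 3731 and 5827 in sorted protoplasts, against 652 and 932 in whole roots, and rose by 2.56 ± 0.39 (SE, limma adjusted p = 0.00350). Both protoplast arrays were well above both root arrays, but STZ was not called without whole-root replicate 1 (2.30, limma adjusted p = 0.0782) or 2 (2.81, limma adjusted p = 0.0514). The dehydrin genes COR47 (0.13 ± 0.33) and LTI30 (-0.13 ± 0.34) did not pass. COR47 turned to -0.31 with spike-in scaling.

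The genes whose profile over the 4 arrays was nearest to each member were sought among 1046 other tested genes with a symbol. Likeness was the Euclidean distance between log2 values centred on each gene's own mean, in log2 units over 4 arrays, and it is a description only. Nearest to PUB22 were petA (cytochrome f, of the plastid genome) at 0.35, rps2 (a plastid ribosomal protein) at 0.39 and SAG101, a lipase-like immune gene, at 0.40. SAG101 had signals of 104 and 279 in sorted protoplasts, against 18.3 and 19.4 in whole roots. It shared with PUB22 near-equal root arrays and a higher second protoplast array. The root signals of SAG101 lay just above the offset, however. The difference of SAG101 was 3.11 with an offset of 1 and 1.53 with an offset of 64. That of PUB22 was 2.84 and 2.65 with these offsets. Whether SAG101 stays among the nearest genes with another offset was not tested.

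Nearest to PUB23 were BGLU46, a beta-glucosidase gene, at 0.49, and the plastid genes psbF (a photosystem II subunit) at 0.53 and atpB (an ATP synthase subunit) at 0.63. BGLU46 had 1414 and 2005 in sorted protoplasts, against 136 and 267 in whole roots. Like PUB23, it was lower on the first root array than on the second. PUB22 and PUB23 were not each other's nearest genes: at a distance of 1.37, PUB23 was 84th nearest to PUB22 and PUB22 was 29th nearest to PUB23.

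PUB24 lay nearest to genes that differed little between groups: KEU, a membrane fusion gene of cell division, at 0.25, IKU1, a seed size gene, at 0.31, and SAMDC, a polyamine synthesis gene, at 0.32. KEU had 615 and 893 in sorted protoplasts, against 431 and 644 in whole roots. PUB24 stood 2.54 from PUB22 and 2.78 from PUB23.

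**Figure D4:**
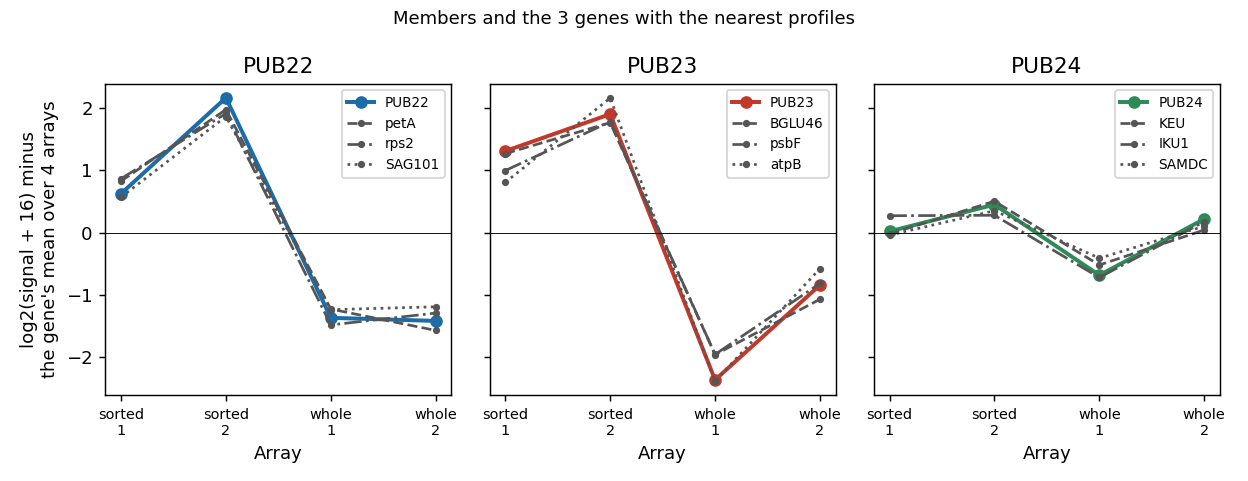
Log2(signal + 16) minus each gene's mean, on the 2 sorted-protoplast arrays and then the 2 whole-root arrays, for each member (coloured) and the 3 genes with the nearest profiles (grey). The PUB22 profile is flat between the root arrays, the PUB23 profile is lowest on whole-root replicate 1, and the PUB24 profile stays within 1 log2 unit of its mean.

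Measures of RNA quality overlapped between the groups, and signals of some cell type markers did not. The ratio of 3' to 5' signal of GAPDH was 3.45 and 9.96 on the sorted-protoplast arrays and 15.02 and 4.56 on the whole-root arrays, and that of actin was 8.51 and 11.96 on the sorted-protoplast arrays and 22.2 and 7.03 on the whole-root arrays. In both groups replicate 1 had lower PUB23 and PUB24 signals than replicate 2. PUB22 was lower on replicate 1 in protoplasts (1517 against 4446) and close between the root replicates (369 and 355). The GAPDH and actin ratios of replicate 1 were the lower ones in protoplasts and the higher ones in roots. Of the markers listed for root cell types and shoot, 9 of 18 were measured and none was at 0. Summed root hair signals (2 of 4 markers, EXPA7 and EXPA18, both of which fell) were 282 and 372 in sorted protoplasts, against 1348 and 1812 in whole roots, where 4.11% of all probe sets tested were called lower. Of the 3 genes listed as root cap markers, scpl48 and AT4G04460 were measured and SMB was not. The summed signals of scpl48 and AT4G04460 were 8076 and 8919 in sorted protoplasts, against 2083 and 2036 in whole roots. Both genes rose, where 6.38% of all probe sets tested were called higher. Whether they mark root cap alone was not tested.

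The xylem gene IRX15 (1 of 3 markers) also rose, with 218 and 128 in sorted protoplasts, against 54.8 and 47.2 in whole roots. All 5 of these marker calls were lost when whole-root replicate 1 or 2 was left out (limma adjusted p = 0.0569 to 0.201), fits with a single root array. Their differences stayed large there, at -2.46 and -2.33 for EXPA18, -2.31 and -1.60 for EXPA7, 2.00 and 1.92 for scpl48, 2.17 and 2.37 for AT4G04460, and 1.54 and 1.38 for IRX15. With no signal filter EXPA7 (limma adjusted p = 0.0553) and IRX15 (limma adjusted p = 0.113) were not called. The call of IRX15 was also lost without sorted-protoplast replicate 1 (1.11) and, like that of AT4G04460, with spike-in scaling (1.02 and 1.83). Stele sums (2 of 3 markers, LHW and PHV, neither called) were 413 and 274 in sorted protoplasts, against 258 and 287 in whole roots. LHW had a difference of 0.04 ± 0.39 that turned to -0.39 with spike-in scaling. PHV, named after its values were seen, had 146 and 129 in sorted protoplasts, against 81.4 and 81.9 in whole roots. Its difference was 0.65 ± 0.33, with both protoplast signals above both root signals, as for 21.5% of all probe sets tested. Shoot sums (2 of 4 markers, LHCB4.1 and RCA, neither called) were 279 and 142 in sorted protoplasts, against 320 and 437 in whole roots, and the endodermis marker was not measured. LHCB4.1 had a difference of -0.97 ± 0.46, which ran from -0.32 to -1.62 with 1 array left out and was called without sorted-protoplast replicate 1 (limma adjusted p = 0.0233). The part of cell makeup and RNA quality in the differences of PUB22 and PUB23 was not tested.

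**Figure D5:**
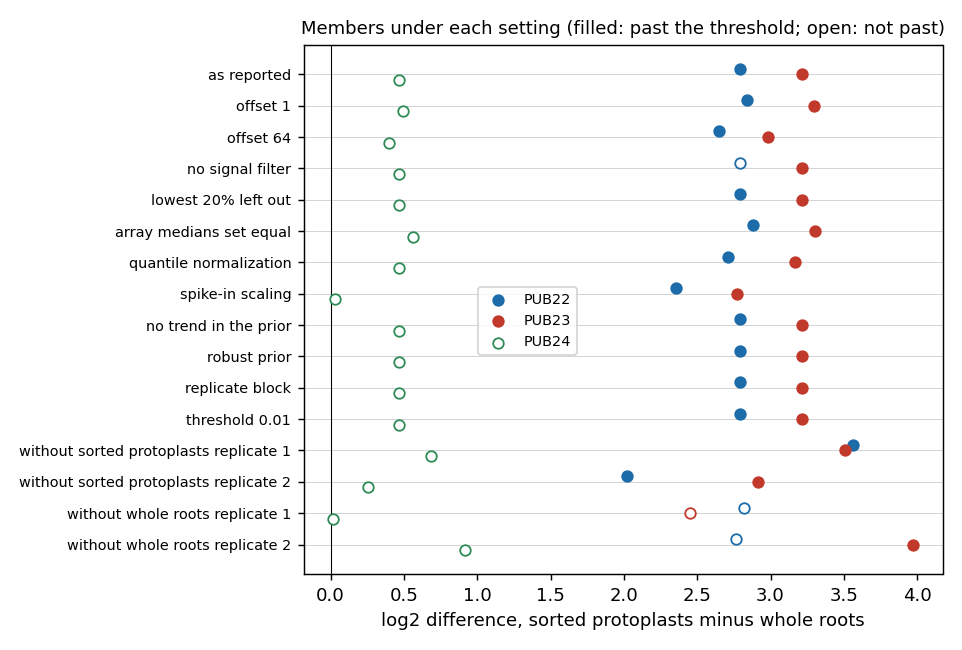
Log2 differences (sorted protoplasts minus whole roots) of PUB22, PUB23 and PUB24 as reported and under 15 alternatives. Points are filled where past the threshold of that setting and open where not. The filter, prior, replicate block and stricter threshold settings leave the differences as they were by construction. PUB22 and PUB23 stay above 2 in each setting, with PUB22 open in 3 of them and PUB23 in 1, and PUB24 stays between 0.02 and 0.92 and open throughout.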

How the data were processed

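Biotin-labelled cRNA from a 2-cycle amplification was put on arrays, per the labels' protocols. The deposited values are linear intensity values, 1 for each probe set on each array. The submitters' processing notes name MAS5, with no version. The trimmed mean (2% left out at each end) averaged 250.02 over the 4 arrays, and the authors' scaling was kept. Medians were 80.7 and 79.0 on the sorted-protoplast arrays and 82.3 and 90.2 on the whole-root arrays. Precision is limited by the number of arrays. The labels do not say that replicates were grown separately, so the spread behind the p-values may be technical only.

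Of 22810 probe sets 64 are controls; of the rest, 13513 had 1 gene in the platform annotation, named through the RefSeq table (TAIR10.1), 503 had several and 8730 none listed. The 40% with the lowest mean log2(signal + 16) were left out, and limma 3.58.1 (R 4.3.3, trended prior) compared the groups (degrees of freedom: 2 residual, 7.56 prior). The exact permutation test used scipy 1.17.1.

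The 3 genes and 8 context lists (192 genes, 34 tested) were chosen with earlier results of these data known. From each list at most 6 members past the threshold and the 2 brightest others are named, and for each of the 3 genes the 3 nearest profiles, plus genes said to be named later. 8 list entries were dropped, since the RefSeq table does not give that name to that locus. Replicate numbers are shared between groups but the labels tie them to nothing.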

Additional observations from a re-analysis of the deposited data

How the results depend on the processing

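The calls over all probe sets, 870 higher and 561 lower, became 394 and 137 with no signal filter, 393 and 107 at an adjusted p under 0.01, 397 and 620 with spike-in scaling, and 167 to 989 higher and 25 to 649 lower with 1 array left out. PUB22 stayed called under 12 of 15 alternatives and PUB23 under 14. PUB22 was not called with no filter (2.79, limma adjusted p = 0.0547, against 0.0427 for PUB23), where the larger number of probe sets tested and the changed prior both enter. With 1 array left out PUB22 ranged from 2.02 to 3.56, PUB23 from 2.45 to 3.98 and PUB24 from 0.02 to 0.92. Spike-in scaling moved the median of all probe sets tested to -0.60, against -0.16 as deposited. Relative to the median the differences were 2.95 for PUB22, 3.37 for PUB23 and 0.63 for PUB24 with either scaling. That equality holds by construction, since this scaling shifts every gene alike. The direction of PUB23 against PUB22 turned with an array left out (-0.37 to 1.21).

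Replicate numbers share only a number, and deviations of same-numbered arrays correlated at -0.156 across probe sets. A replicate block gave 1123 higher and 787 lower calls and by construction leaves the differences as they were, with PUB22 (2.79) and PUB23 (3.21) called and PUB24 (0.47) not. Crossed numbers were not run.

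Of the 34 context list genes tested 7 were higher and 2 lower, where 6.38% of all probe sets tested were called higher and 4.11% lower. These became 3 higher with spike-in scaling, 1 lower with no filter, 1 lower at an adjusted p under 0.01, and 1 to 7 higher and 0 to 4 lower with 1 array left out. Over 34 other named genes and their alternatives, 510 values were compared: 447 had the direction and side reported, 46 were no longer past the threshold, 2 passed it anew (UBC16 and LHCB4.1, each without 1 protoplast array) and 15, each of a gene not called, had the other sign. With spike-in scaling the sign changed for ATL8 (-0.13), ATL4H (-0.23), COR47 (-0.31), LHW (-0.39), UBC28 (-0.14), PUB25 (-0.18) and SAMDC (-0.13), small differences turned by the shift that this scaling gives every gene alike. With 1 array left out it changed for ATL8 (range -0.30 to 0.92), COR47 (-0.044 to 0.31), LTI30 (-0.31 to 0.052), LHW (-0.37 to 0.45) and PUB25 (-0.21 to 0.73). Of the 510 values, those under the filter, prior, replicate block and stricter threshold settings could not change sign, since these settings leave each difference as it was. PHV was not among the 34 genes compared. Except where stated, the cause of a change was not tested. Low signal limits what can be seen: from 19.6% to 22.1% of an array's signals did not reach the offset of 16.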

Other observations

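The genes on either side of the triplet were looked at after the main results had been seen, by their order in the RefSeq table. Of the 18 protein-coding genes within 3 places of PUB22, PUB23 or PUB24, 9 had a single-gene probe set and 6 were tested. Of these 1 rose and 0 fell, where 6.38% of all probe sets tested were called higher. AT3G52470, which lies 2 places from PUB22, had signals of 2149 and 2347 in sorted protoplasts, against 676 and 1047 in whole roots, a difference of 1.40 ± 0.37 (SE, limma adjusted p = 0.0416). That call held with the replicate block but was lost with no filter, with spike-in scaling (0.96, limma adjusted p = 0.303) and without any single array (1.09 to 1.71, limma adjusted p from 0.0638 to 0.300). The other 5 had differences from -0.92 to 1.03 and did not pass.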
